A study of Mus musculus with 4 samples.

Results

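Colon of germ-free C57BL/6 mice given Lactobacillus rhamnosus GG (LGG) by oral gavage was set beside colon of germ-free mice given phosphate-buffered saline (PBS), the vehicle. The members of the comparison are the genes with a mean of at least 1 CPM (read counts scaled to library size) over the 4 libraries of the series, which 14450 of the 24016 genes in the deposited table reached. Mice were 7 weeks old, and colon pieces of 4 cm were frozen 4 h after gavage of LGG or Escherichia coli, both at a dose of 2 x 10E9 cfu/mL, or of PBS. An untreated group completes the series. Every group, the controls included, was germ-free before gavage and carried no resident microbiota. Gavaged groups numbered 4 mice according to the labels, which leave unsaid how many animals stand behind a library. Each condition has 1 library, so no difference has a replicate check, no p-value is given, and every interval is a 95% counting interval of the 2 libraries compared. In whole colon tissue, fewer cells of a type and less RNA per cell cannot be told apart.

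LGG is a probiotic lactic acid bacterium that lives in the lumen and on the mucus of the gut. Nrf2, encoded by Nfe2l2, is a transcription factor that the adaptor Keap1 marks for destruction in resting cells. Oxidants and electrophiles modify Keap1, Nrf2 then enters the nucleus, pairs with small Maf proteins at antioxidant response elements and switches on genes for glutathione, thioredoxin and quinone metabolism. The title of the series names this pathway in the protection of the epithelium by lactobacilli. The colon epithelium consists of absorptive colonocytes, mucus-making goblet cells, hormone-making enteroendocrine cells and stem cells. It lies on a wall of connective tissue, vessels, nerves and muscle that is covered by mesothelium and is joined to fat.

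The libraries held 29899371 counts on genes after LGG and 16289580 after PBS, with 29368008 for E. coli and 27220697 for the untreated library. A count of 0 allowed up to 0.103 CPM after LGG and 0.187 CPM after PBS. Markers of colon were abundant throughout: the sum of the colonocyte markers Car1, Slc26a3, Car4 and Aqp8 was 6833 CPM after LGG and 6286 CPM after PBS. The goblet cell markers Muc2, Tff3, Fcgbp and Clca1 summed to 17217 CPM after LGG and 16279 CPM after PBS. The smooth muscle markers Myh11, Acta2, Des and Actg2 summed to 7730 CPM after LGG and 7980 CPM after PBS.

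The LGG and PBS libraries were close to each other. The log2 ratio of LGG over PBS had a median of -0.0026, and 5% of genes lay below -0.35 and 5% above 0.33. Higher by at least 2-fold with an interval above 0 were 26 genes, 0.18% of those measured, and lower by at least 2-fold with an interval below 0 were 14 genes, 0.0969%. At a threshold of 1.5-fold the counts were 113 higher (0.782%) and 114 lower (0.789%). Without a threshold on size, 2066 genes (14.3%) had an interval above 0 and 1899 (13.1%) an interval below 0. Counts above and below 0 in the gene lists stand beside these shares, which are not matched for abundance. The genes past 2-fold were mostly of low abundance: 6 of the 26 higher genes and 0 of the 14 lower genes had a mean of at least 5 CPM, and 22 of the 26 and 10 of the 14 had fewer than 50 counts after PBS. Of the 4605 genes with a mean of at least 50 CPM, 0 were past 2-fold, 7 were higher and 2 lower past 1.5-fold.

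**Figure D1:**
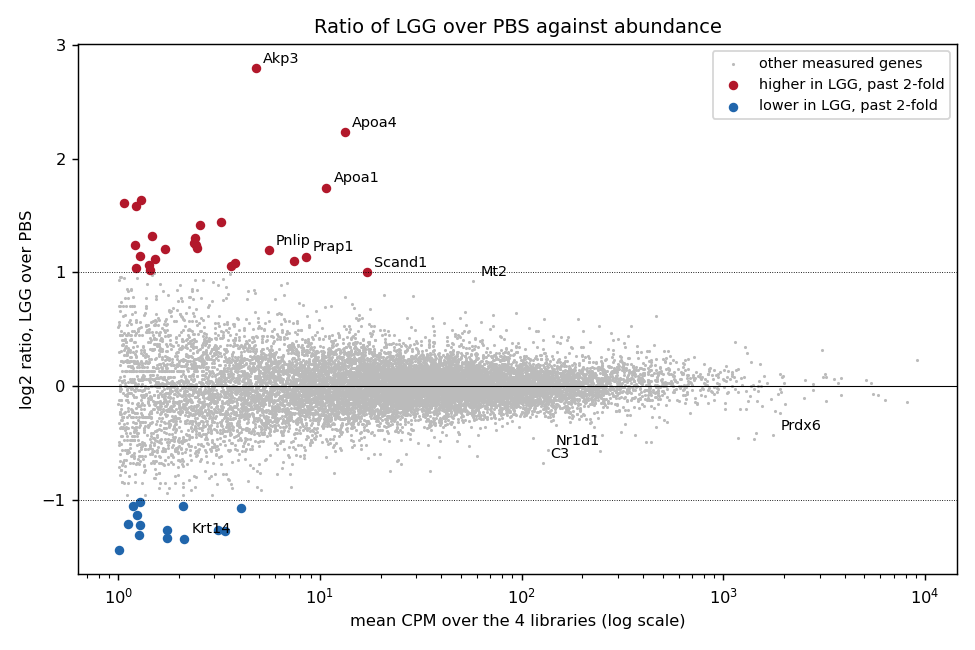
Log2 ratio of LGG over PBS (vertical axis) against the mean CPM over the 4 libraries (horizontal axis, log scale) for 14450 genes; red points are the 26 genes higher and blue points the 14 genes lower past 2-fold. The coloured points lie at the low end of abundance, and Mt2 stands above, and C3 and Nr1d1 below, the cloud of abundant genes.

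The ratio also went with the length of the transcript. Among the 431 genes with transcripts of up to 700 bases the median log2 ratio of LGG over PBS was 0.12, and among the 1540 genes over 6000 bases it was -0.098, with a steady decrease in between. By base composition, the 1311 genes of up to 42% GC had a median of -0.023 and the 1668 genes over 58% GC a median of 0.082. The length trend was also present in LGG over E. coli, where the shortest and longest classes had medians of 0.11 and -0.077, and in LGG over the untreated library, where they had 0.21 and -0.14. PBS over the untreated library, which does not involve LGG, also decreased with length, from 0.075 in the shortest to -0.034 in the longest class. Medians of gene lists are therefore given below also after centring each gene on the median of genes of like length and GC content, and the part of length in each result was not tested beyond this.

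**Figure D2:**
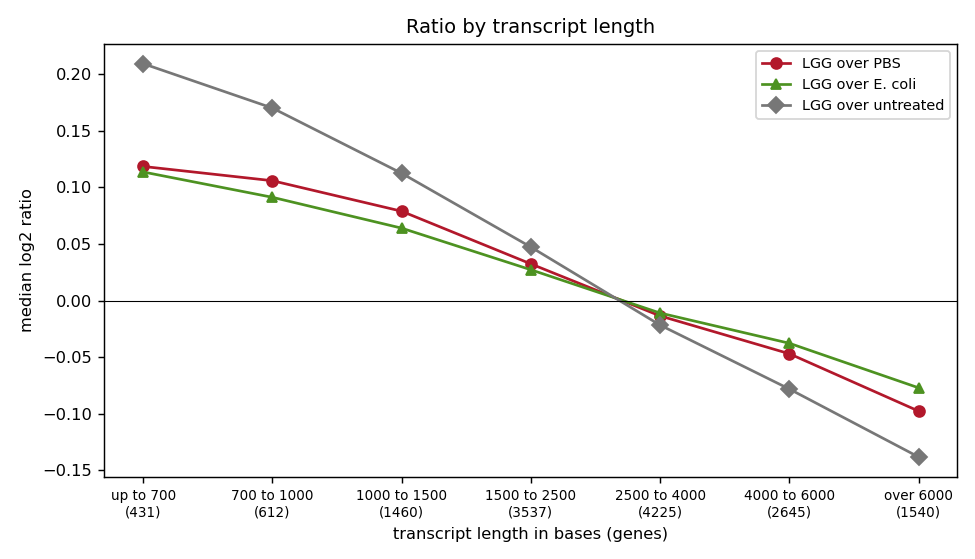
Median log2 ratio (vertical axis) of LGG over PBS, LGG over E. coli and LGG over the untreated library in 7 classes of transcript length (horizontal axis, number of genes in brackets). All 3 lines descend from short to long transcripts, from 0.12 to -0.098 in LGG over PBS.

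Genes of the Nrf2 pathway were near even in LGG and PBS. Nfe2l2 had 211 CPM after LGG, 202 after E. coli, 202 after PBS and 208 untreated. Its ratio of LGG over PBS was 0.06 on the log2 scale (interval 0.00 to 0.13). Keap1 had 77.6 CPM after LGG, 76.6 after E. coli, 71.8 after PBS and 74.9 untreated, a log2 ratio of 0.11 (0.01 to 0.22). For both genes the LGG library was the highest of the 4, though the others lay close below it. Sqstm1, the autophagy receptor that sequesters Keap1, had 288 CPM after LGG and 255 after PBS (log2 ratio 0.17, 0.12 to 0.23). Cul3, the scaffold of the ligase that Keap1 serves, had 88.3 CPM after LGG and 95.1 after PBS (-0.11, -0.20 to -0.02), and Maff, a small Maf partner of Nrf2, had 19.3 CPM after LGG and 22.6 after PBS (-0.23, -0.42 to -0.03).

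The classical targets split in direction. Nqo1, the quinone reductase most used as a readout of Nrf2, had 29.2 CPM after LGG, 26.1 after E. coli, 27.4 after PBS and 33.5 untreated, so that the untreated library was the highest. Its log2 ratio of LGG over PBS was 0.09 with an interval of -0.08 to 0.26. Srxn1, which repairs peroxiredoxins, had 171 CPM after LGG and 158 after PBS (0.11, 0.04 to 0.18), and Gclm, a subunit of the enzyme that limits glutathione synthesis, had 61.6 CPM after LGG and 56.3 after PBS (0.13, 0.01 to 0.25). The catalytic subunit Gclc was at -0.03 (-0.12 to 0.07). Txnrd1, the cytosolic thioredoxin reductase, had 309 CPM after LGG and 330 after PBS, a log2 ratio of -0.10 with an interval below 0 (-0.14 to -0.05). Hmox1, which degrades haem, had 4.51 CPM after LGG and 5.17 after PBS (-0.20, -0.60 to 0.22), and the cystine transporter Slc7a11 had 1.85 CPM after LGG and 2.24 after PBS (-0.28, -0.92 to 0.37).

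Over the 7 Nrf2 lists together, 100 of 101 genes were measured, 0 were past 2-fold in either direction, and 1 was past 1.5-fold: Ggt1, which breaks down extracellular glutathione, at 3.35 CPM after LGG and 2.18 after PBS (log2 ratio 0.61, 0.05 to 1.22). Intervals lay above 0 for 37 genes and below 0 for 10, against 14.3% and 13.1% of all genes. Intervals are narrower for genes with more counts, and these shares were not matched for abundance. Of the 100 genes, the ratio was positive in 69 before and in 60 after centring. The median log2 ratio was 0.08, and 0.01 after centring on genes of like length and GC; the list's median length was 1599 bases, against 2844 for all measured genes. Glutathione S-transferases, which attach glutathione to electrophiles, had 8 of 21 above and 2 below, with Gsta4 at 0.37 (0.20 to 0.54) and Mgst2 at 0.30 (0.21 to 0.40) and a median of 0.11, or 0.03 centred. The thioredoxin system had 7 of 9 above and 1 below and a median of 0.11, or 0.08 centred, with Txnrd2, its mitochondrial reductase, at 0.30 (0.06 to 0.54) and the methionine sulfoxide reductase Msra at 0.26 (0.12 to 0.39). Ferritin light chain (Ftl1), which stores iron, was at 0.13 before and -0.041 after centring. The selenoenzyme Gpx1 was at 0.11 before and -0.064 after, and the peroxiredoxin Prdx5 at 0.14 before and -0.031 after. The direction of these 3 genes thus depended on that step.

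Prdx6, a peroxiredoxin that is also a marker of distal colon, went furthest in the other direction. It had 1660 CPM after LGG, 2387 after E. coli, 2242 after PBS and 792 in the untreated library. Its log2 ratio of LGG over PBS was -0.43 (-0.45 to -0.41), yet LGG was above the untreated library. Gpx2, the glutathione peroxidase of gut epithelium, had 296 CPM after LGG and 331 after PBS (-0.16, -0.21 to -0.11). Of all genes, 14.3% were above and 13.1% below 0. Among the enzymes that make oxidants, the NADPH oxidase list had 0 of 12 measured members above and 3 below. Among these were the colon oxidase Nox1 (22.0 CPM after LGG and 26.7 after PBS; -0.28, -0.46 to -0.10) and Duox2 (-0.21, -0.35 to -0.07).

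**Figure D3:**
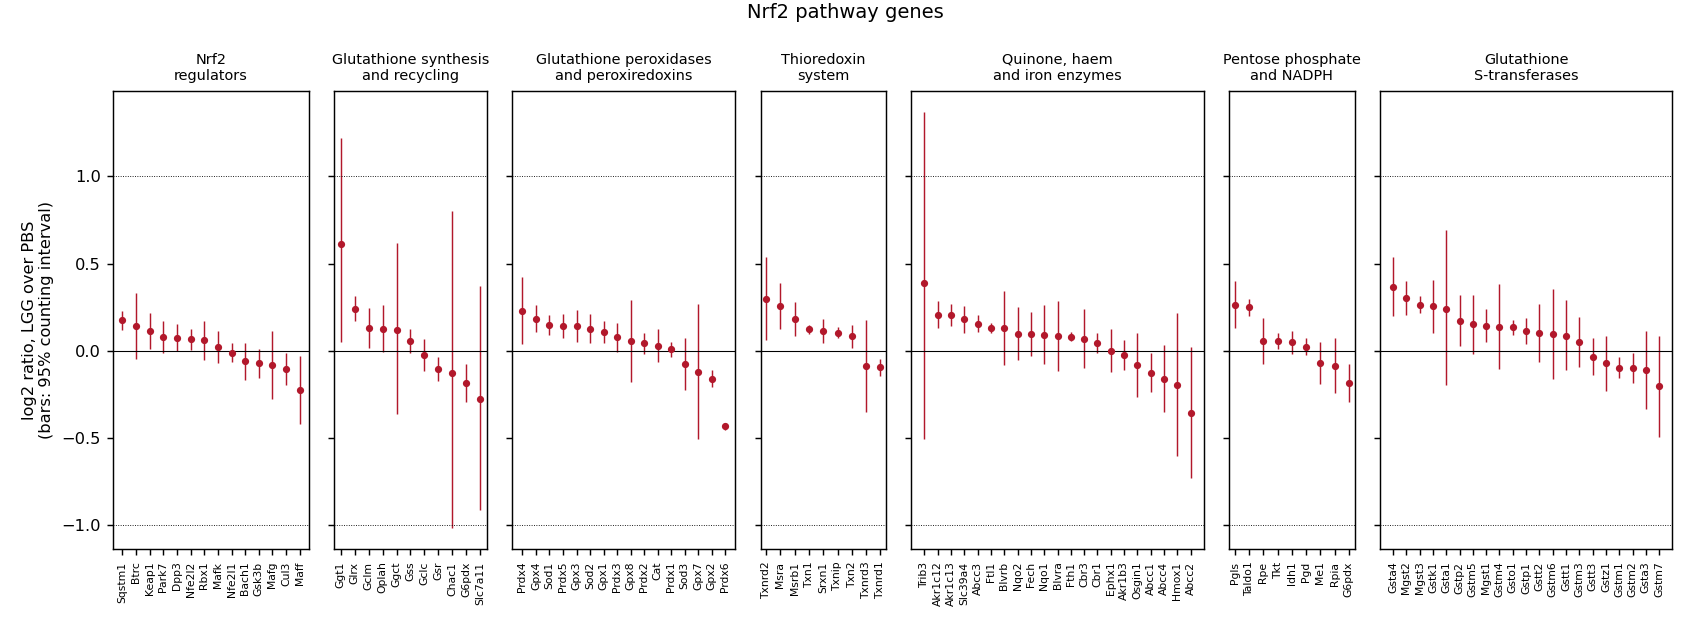
Log2 ratio of LGG over PBS with its 95% counting interval (vertical axis) for each measured gene of the 7 Nrf2 lists (panels, genes ordered by ratio; G6pdx stands in 2 lists). All points lie between the dotted lines at 2-fold; Ggt1 is the highest at 0.61 and Prdx6 the lowest at -0.43.

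The antioxidant response element core TGACNNNGC was searched on both strands in RefSeq promoter windows (GRCm38.p6, from upstream of each start to just inside the gene, 300 bases in all). Of the 10805 measured genes with a window, 16.9% held it, as did 24.7% of the 85 Nrf2 pathway genes with a window. Of the 8 core genes, 6 had a window and 4 of these a match: Nfe2l2 (TGACTCCGC), Gclm (GCACCGTCA), Txnrd1 (GCTTTGTCA) and Srxn1 (GCTAGGTCA), the last 3 read on the gene's strand as the reverse complement. Elements that lie further upstream fall outside these windows.

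The genes furthest above PBS were markers of small intestinal enterocytes. Akp3, an intestinal alkaline phosphatase on chromosome 1 (89021583 to 89024487, mm9), had 4.03 CPM after LGG, 0.0344 after E. coli, 0.561 after PBS and 14.6 in the untreated library. These are 118, 1, 9 and 416 counts. The order was untreated, LGG, PBS and E. coli, and the log2 ratio of LGG over PBS was 2.80 (1.87 to 4.01). Apoa4, a lipid-carrying apolipoprotein on chromosome 9 (46048927 to 46051541), had 5.95 CPM after LGG, 0.310 after E. coli, 1.25 after PBS and 45.8 untreated (2.23, 1.58 to 3.001). Its neighbour Apoa1 (46036713 to 46038552), the main protein of high-density lipoprotein, had 15.5 CPM after LGG, 3.17 after E. coli, 4.61 after PBS and 19.7 untreated (1.75, 1.39 to 2.13). Both apolipoprotein genes showed the same order of libraries as Akp3.

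Lactase (Lct) had 24 counts after LGG and 4 after PBS, so that its log2 ratio of 1.63 had an interval of 0.18 to 3.71. Prap1, a secreted proline-rich protein that binds lipids, had 10.7 CPM after LGG, 3.37 after E. coli, 4.86 after PBS and 15.1 untreated (1.14, 0.78 to 1.52). Fabp2, the intestinal fatty acid binding protein, was far more abundant, with 464 CPM after LGG, 274 after E. coli, 322 after PBS and 330 untreated. Unlike the genes above, it was higher after LGG than in each of the other libraries, with a log2 ratio over PBS of 0.53 (0.48 to 0.57). Over the list, 38 of 43 genes were measured, 5 were higher past 2-fold and 0 lower, 8 were higher past 1.5-fold, and 21 had intervals above and 3 below 0. The median was 0.28, 0.27 after centring, 0.30 over E. coli and -0.25 over the untreated library. On the lower side stood Cps1, the first enzyme of the urea cycle, with 6.77 CPM after LGG and 9.35 after PBS (-0.46, -0.78 to -0.15).

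Promoter windows of 2 of these genes are shown because they hold CAAAGTNCA, a form of the site bound by HNF4 proteins, which drive enterocyte genes. Of the measured genes with a window, 1.43% held it on either strand, as did 5 of the 31 small intestinal enterocyte genes with a window. A match describes the letters only and says nothing of binding. In the windows of Apoa4 (chr9:46240594-46240893, plus strand) and Fabp2 (chr3:122894822-122895121, plus strand), from RefSeq in GRCm38.p6, capitals mark the match; in Fabp2 it lies on the other strand.
Apoa4: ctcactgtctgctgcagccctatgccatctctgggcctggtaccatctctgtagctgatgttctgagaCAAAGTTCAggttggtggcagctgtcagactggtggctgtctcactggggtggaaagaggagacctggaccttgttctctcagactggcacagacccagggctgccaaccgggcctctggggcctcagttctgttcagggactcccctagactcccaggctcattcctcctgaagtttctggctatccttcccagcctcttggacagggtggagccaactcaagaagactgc
Fabp2: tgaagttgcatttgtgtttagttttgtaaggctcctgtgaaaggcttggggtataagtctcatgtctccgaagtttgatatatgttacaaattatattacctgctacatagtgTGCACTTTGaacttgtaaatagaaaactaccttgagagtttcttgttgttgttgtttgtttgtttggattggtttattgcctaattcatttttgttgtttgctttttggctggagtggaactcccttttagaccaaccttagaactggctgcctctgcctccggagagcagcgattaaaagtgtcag

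Pancreatic acinar enzymes made up the next group. Acinar cells make the digestive enzymes of pancreatic juice and are no part of the colon wall. Pnlip, pancreatic lipase, had 6.60 CPM after LGG, 12.7 after E. coli, 2.87 after PBS and 0.140 in the untreated library, and Cela2a, an elastase, had 9.36 CPM after LGG, 14.5 after E. coli, 4.36 after PBS and 1.33 untreated. For both genes E. coli was the highest, LGG the second and the untreated library the lowest. Their log2 ratios of LGG over PBS were 1.20 (0.73 to 1.70) and 1.10 (0.72 to 1.502). The protease Ctrl was at 1.42 (0.65 to 2.31), the lipase relative Pnliprp1 at 1.30 (0.61 to 2.10), the bile salt lipase Cel at 1.24 (0.48 to 2.11) and the ribonuclease Rnase1 at 1.14 (0.23 to 2.21). Of 30 listed genes 21 were measured, 6 were past 2-fold and 12 past 1.5-fold, all higher, and 1, the transcription factor Bhlha15, which plasma cells and other secretory cells share, was lower past 1.5-fold (-0.65, -1.06 to -0.24). The defining markers Cel, Pnlip, Cpa1, Ctrb1, Prss2 and Cela2a summed to 33.9 CPM after LGG, 61.0 after E. coli, 16.5 after PBS and 1.96 in the untreated library, with none at 0 in any of them. Members that the colon itself expresses at high level differed in direction. Zg16 was at 0.06 before and -0.023 after centring, and Cela1 was at -0.13 (-0.20 to -0.07). Klk1, with 958 CPM after LGG and 870 after PBS, was at 0.14 (0.11 to 0.17), and at 0.05 after centring. How far tissue next to the colon entered each piece was not tested.

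The remaining higher genes past 2-fold were scattered in function. Nrtn, which encodes the neurotrophic factor neurturin, had 5.13 CPM after LGG, 2.41 after E. coli, 1.87 after PBS and 3.50 untreated, a log2 ratio over PBS of 1.44 (0.88 to 2.07). Hp, which encodes the haemoglobin scavenger haptoglobin, had 3.90 CPM after LGG, 1.20 after E. coli, 1.62 after PBS and 2.80 untreated (1.25, 0.64 to 1.94). In both genes LGG was the highest of the 4. Scand1, a small SCAN-domain protein, was the most abundant gene past 2-fold, with 23.5 CPM after LGG, 15.4 after E. coli, 11.7 after PBS and 18.0 untreated. It lay on the threshold, at 1.00 (0.77 to 1.25), and below it, at 0.83, after centring. Just outside lay Mrap at 0.99. Further genes past the rule, each under 6 CPM, were C1qtnf4 (1.61), Sncb, which encodes beta-synuclein (1.58), the hyaluronan-binding protein gene Cemip (1.20), the neurotrophic factor gene Cdnf (1.11), C2cd4b (1.08), the organic cation exporter Slc47a1 (1.06) and Prr7 (1.04), with the non-coding rows Ces2d-ps, Gm1965, Gm4013, 2410017I17Rik and 5730408K05Rik.

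Of the 26 higher genes, LGG was the highest of the 4 libraries in 11 (42.3%, against 23.98% of all measured genes) and PBS the lowest in 13 (against 20.8%). Since the genes were chosen for LGG above PBS, shares above those of all genes follow from the choice.

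**Figure D4:**
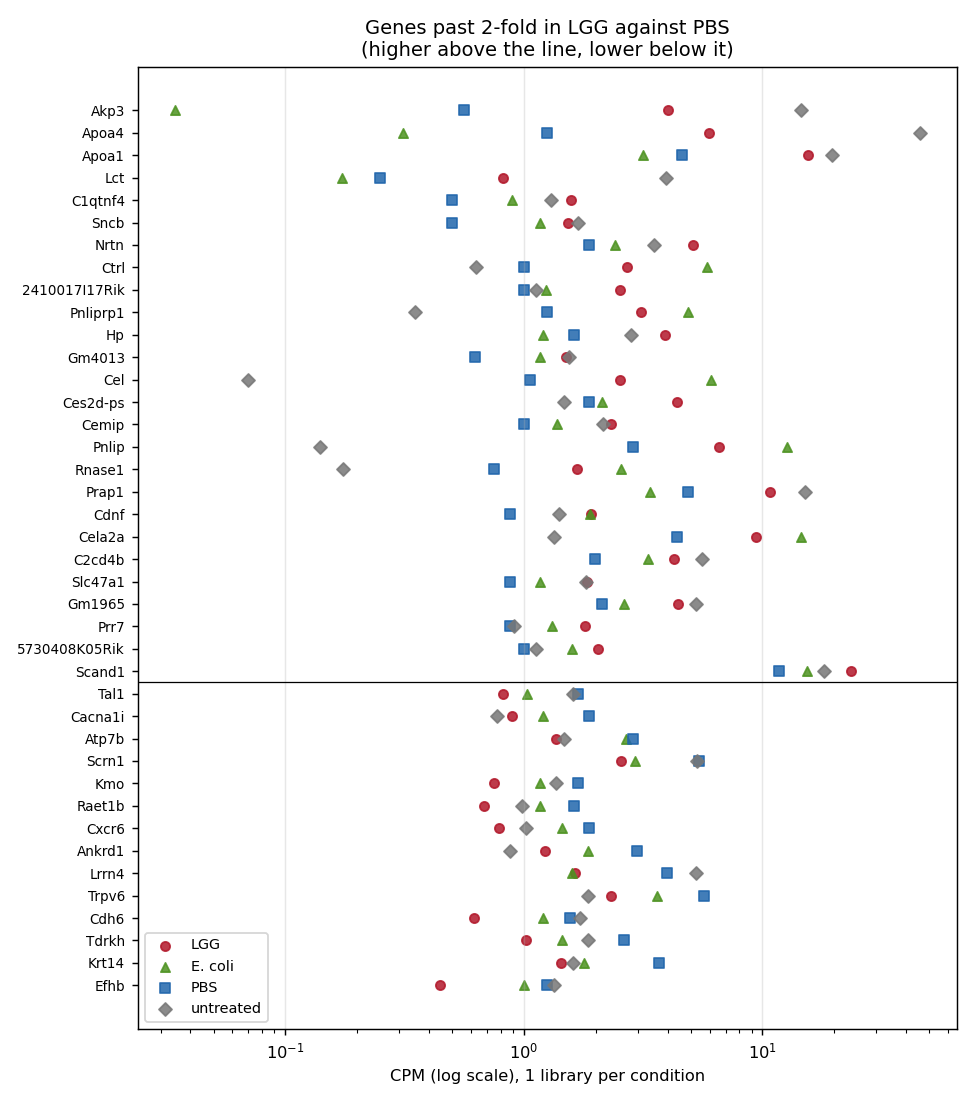
CPM (horizontal axis, log scale) of the 40 genes past 2-fold in LGG against PBS in the LGG (circles), E. coli (triangles), PBS (squares) and untreated (diamonds) libraries. In Akp3, Apoa4, Apoa1, Lct and Prap1 the untreated library is the highest and E. coli the lowest; in Pnlip, Cel, Ctrl and Cela2a E. coli is the highest.

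The 14 lower genes had between 0.444 and 2.56 CPM after LGG and between 1.25 and 5.67 CPM after PBS. Trpv6, the calcium channel of absorptive epithelium, had 2.32 CPM after LGG, 3.61 after E. coli, 5.67 after PBS and 1.86 untreated, a log2 ratio over PBS of -1.28 (-1.76 to -0.82). The basal cell keratin Krt14 had 1.44 CPM after LGG, 1.79 after E. coli, 3.68 after PBS and 1.61 untreated (-1.34, -1.96 to -0.76). In both genes the PBS library stood above the other 3. Scrn1 had 2.56 CPM after LGG, 2.93 after E. coli, 5.42 after PBS and 5.29 untreated (-1.07, -1.55 to -0.62), so that here both libraries given bacteria were the lower ones. Efhb was at -1.44, the piRNA pathway gene Tdrkh at -1.33, the cadherin Cdh6 at -1.31, the cardiac and muscle ankyrin repeat gene Ankrd1 at -1.27 and the chemokine receptor Cxcr6, found on resident T cells, at -1.23. Raet1b, a ligand of the NKG2D receptor, was at -1.22, the kynurenine enzyme Kmo at -1.14, the calcium channel gene Cacna1i at -1.05 and the haematopoietic and endothelial factor Tal1 at -1.02. With Lrrn4 and 1 further gene these make up the 14, and the next gene outside the threshold was Xirp1 at -0.96. PBS was the highest of the 4 libraries in 11 of the 14 and LGG the lowest in 10, against 20.2% and 23.6% of all genes, which again follows from the choice of genes with LGG below PBS.

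Mesothelial genes, markers of the outer cover of the gut, gave the lowest list median. Lrrn4 had 1.64 CPM after LGG, 1.58 after E. coli, 3.99 after PBS and 5.26 in the untreated library (-1.27, -1.85 to -0.72), and mesothelin (Msln) had 5.54 CPM after LGG, 4.13 after E. coli, 10.3 after PBS and 8.83 untreated (-0.89, -1.21 to -0.57). Both were lower in the libraries given bacteria than in the others. C3, the central complement component, which epithelium and mesothelium make, had 91.9 CPM after LGG, 84.1 after E. coli, 147 after PBS and 188 untreated (-0.68, -0.76 to -0.60), the same split at higher abundance. Of 12 measured members, 1 was lower past 2-fold and 6 past 1.5-fold, 7 had intervals below and 3 above 0, and the median was -0.58, also -0.58 after centring. The defining markers Msln, Upk3b, Wt1 and Lrrn4 summed to 14.8 CPM after LGG, 10.3 after E. coli, 25.7 after PBS and 30.1 untreated. Among members with a mean of at least 5 CPM, which include the epithelial keratin Krt19, the median was -0.05. Endothelial genes had 0 of 20 above and 7 below, with a median of -0.17 (-0.16 centred), among them the receptor Kdr (20.1 CPM after LGG and 24.9 after PBS; -0.30, -0.49 to -0.12) and Pecam1 (-0.21, -0.35 to -0.07).

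Among abundant genes, metallothionein 2 (Mt2) was the furthest above PBS. Metallothioneins bind zinc and copper and are induced by metals, glucocorticoids and oxidants. Mt2, on chromosome 8 (96696518 to 96697467, mm9), had 66.0 CPM after LGG, 55.0 after E. coli, 34.8 after PBS and 74.9 in the untreated library. PBS was the lowest library and the untreated library the highest, and the log2 ratio of LGG over PBS was 0.92 (0.79 to 1.06). Its neighbour Mt1 had 202 CPM after LGG, 178 after E. coli, 150 after PBS and 154 untreated (0.43, 0.36 to 0.50), with LGG the highest. Other genes induced by glucocorticoids were nearer to 0: Sgk1, a kinase of sodium uptake, was at 0.21 (0.16 to 0.26) and the cell cycle inhibitor Cdkn1a at 0.16 (0.11 to 0.21). The whole list of 24 measured genes, Mt2 included, had a median of 0.06 with 11 above and 4 below.

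Promoter windows of both metallothionein genes are shown because they hold the core of the metal response element, TGCNCNC with the fourth letter A or G, which was searched on both strands as TGCACNC and TGCGCNC. Of the measured genes with a window, 39.8% held at least 1 such core. Mt1 held 3 and Mt2 held 4, and Mt2 also held 1 antioxidant response element core, TGACTCAGC. In the windows of Mt1 (chr8:94178839-94179138, plus strand) and Mt2 (chr8:94172368-94172667, plus strand), from RefSeq in GRCm38.p6, capitals mark these cores.
Mt1: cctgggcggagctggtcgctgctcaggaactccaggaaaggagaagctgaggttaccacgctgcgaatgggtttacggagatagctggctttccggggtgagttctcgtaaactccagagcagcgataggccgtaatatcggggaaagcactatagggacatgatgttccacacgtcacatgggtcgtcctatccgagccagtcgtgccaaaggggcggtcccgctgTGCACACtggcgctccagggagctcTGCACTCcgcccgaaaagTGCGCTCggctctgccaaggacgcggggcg
Mt2: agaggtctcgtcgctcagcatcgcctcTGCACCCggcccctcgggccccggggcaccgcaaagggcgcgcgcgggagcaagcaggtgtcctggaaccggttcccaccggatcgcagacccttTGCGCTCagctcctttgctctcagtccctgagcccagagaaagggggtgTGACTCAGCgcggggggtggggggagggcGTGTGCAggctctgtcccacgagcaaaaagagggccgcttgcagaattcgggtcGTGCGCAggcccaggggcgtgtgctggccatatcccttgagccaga

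Further abundant genes above PBS belonged to drug metabolism and to epithelial identity. The cytochrome P450 genes Cyp2c65 (157 CPM after LGG, 84.6 after E. coli, 104 after PBS and 170 untreated; 0.59, 0.51 to 0.67) and Cyp2c55 (269 CPM after LGG, 154 after E. coli, 187 after PBS and 358 untreated; 0.53, 0.46 to 0.59) had log2 ratios of LGG over PBS with intervals above 0. In both, LGG lay between the untreated library and the other gavaged libraries. Cdx2, the transcription factor of intestinal identity, had 225 CPM after LGG, 148 after E. coli, 149 after PBS and 236 untreated (0.59, 0.52 to 0.66), so that LGG was close to the untreated library and PBS close to E. coli. Id3, an inhibitor of helix-loop-helix factors, was at 0.62 (0.51 to 0.74), Plet1 at 0.53 (0.42 to 0.64), Cystm1 at 0.56 (0.45 to 0.67), Mpst, which makes hydrogen sulfide, at 0.51 (0.43 to 0.60) and Phgr1 at 0.48 (0.42 to 0.55). Phgr1 and Cystm1 have short transcripts, of 535 and 590 bases, and were at 0.31 and 0.39 after centring.

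Abundant genes below PBS were led by C3 and were mixed in function. Flnc, filamin of muscle, had 215 CPM after LGG, 238 after E. coli, 319 after PBS and 201 untreated (-0.57, -0.62 to -0.52), with PBS the single high library. Fibronectin (Fn1) had 369 CPM after LGG, 448 after E. coli, 520 after PBS and 408 untreated (-0.49, -0.53 to -0.45), with LGG the lowest. Reads counted on Lars2, which encodes the mitochondrial leucyl-tRNA synthetase, came to 1733 CPM after LGG, 1085 after E. coli, 2397 after PBS and 487 untreated (-0.47, -0.49 to -0.45). This is a wide range over all 4 libraries, and whether all of these reads come from Lars2 messenger RNA was not tested. The stearoyl-CoA desaturase Scd2 had 1266 CPM after LGG and 1692 after PBS (-0.42, -0.44 to -0.40). Selenbp1, a methanethiol oxidase, was at -0.46 (-0.48 to -0.43), the calpain Capn13 at -0.52 (-0.64 to -0.41) and the gasdermin Gsdmc4 at -0.44 (-0.48 to -0.39).

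Lists of fat burning and of drug metabolism were higher after LGG without a gene past 2-fold. Fatty acid oxidation and PPAR target genes had 22 of 34 above and 0 below and a median of 0.19, 0.16 after centring. Creb3l3, a liver and gut factor of lipid metabolism, had 6.36 CPM after LGG, 3.75 after E. coli, 3.55 after PBS and 3.99 untreated (0.84, 0.40 to 1.29), with LGG alone high. Acaa1b, a peroxisomal thiolase, had 7.42 CPM after LGG and 4.24 after PBS (0.80, 0.41 to 1.22), and the carnitine carrier Slc25a20 had 186 CPM after LGG and 138 after PBS (0.43, 0.36 to 0.50). Conjugation enzymes and esterases had 21 of 30 above and 0 below, 4 of them past 1.5-fold, and a median of 0.26, 0.24 after centring. They were led by the glucuronosyltransferase Ugt2b5 (17.2 CPM after LGG and 11.1 after PBS; 0.63, 0.38 to 0.88) and the carboxylesterases Ces1d (0.59, 0.46 to 0.73) and Ces1f (0.55, 0.41 to 0.70). Cytochrome P450 genes had 11 of 20 above and 0 below and a median of 0.15, with Cyp4b1 at 0.54 (0.41 to 0.67). Over the untreated library the medians of these 3 lists were 0.04, 0.08 and -0.07.

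Genes of sterol and fatty acid synthesis had 1 of 31 above and 16 below and a median of -0.10, also -0.10 after centring. Acly, which supplies cytosolic acetyl-CoA, had 414 CPM after LGG, 516 after E. coli, 533 after PBS and 383 untreated (-0.36, -0.40 to -0.32), and fatty acid synthase (Fasn) had 415 CPM after LGG, 412 after E. coli, 501 after PBS and 434 untreated (-0.27, -0.31 to -0.23). For Fasn the PBS library was alone high, and for Acly both PBS and E. coli were. Adipocyte genes had 13 of 18 above and 0 below and a median of 0.28, 0.25 after centring, with the lipid droplet protein Cidec at 22.1 CPM after LGG, 8.88 after E. coli, 14.6 after PBS and 19.1 untreated (0.60, 0.38 to 0.82). The fat cell markers Plin1, Adipoq, Cfd and Lep summed to 62.3 CPM after LGG, 24.8 after E. coli, 50.04 after PBS and 74.7 untreated, and their part in the lipid lists was not tested.

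Markers of position along the colon differed as well. Of the proximal list, 9 of 17 were above and 2 below, with a median of 0.18 (0.21 centred). Hoxb6, a homeobox gene of proximal colon, had 17.0 CPM after LGG, 7.95 after E. coli, 11.7 after PBS and 33.1 in the untreated library (0.55, 0.30 to 0.80), and Hoxb8 (0.43, 0.15 to 0.72), Hoxb7 (0.47, 0.09 to 0.86) and Osr2 (0.40, 0.22 to 0.58) ran the same way. Of the distal list, 3 of 18 were above and 7 below, with a median of -0.29 (-0.30 centred). Hoxd13, the most posterior gene of its cluster, had 15.4 CPM after LGG, 39.1 after E. coli, 24.9 after PBS and 21.2 untreated (-0.69, -0.89 to -0.49). Hoxb13 had 203 CPM after LGG, 286 after E. coli, 248 after PBS and 134 untreated (-0.29, -0.35 to -0.23), and the mucin glycosyltransferase B3gnt7 had 355 CPM after LGG, 555 after E. coli, 500 after PBS and 242 untreated (-0.50, -0.54 to -0.45). In most of these genes LGG lay between the untreated library and PBS, with E. coli beyond PBS. For the other Hox genes of these lists the interval included 0. Their log2 ratios were -0.05 for Hoxa5, 0.09 for Hoxa7, 0.12 for Hoxb5, 0.08 for Hoxb9 and 0.18 for Hoxd9. Hoxa11 was at -0.01, Hoxa13 at 0.15, Hoxd10 at -0.29, Hoxd11 at -0.37 and Hoxd12 at -0.52. The proximal list had a median of 0.47 over E. coli and -0.16 over the untreated library, and the distal list -0.51 and 0.37. Within the proximal list, Ang4 (-0.24, -0.35 to -0.13) and Car4 (-0.13, -0.16 to -0.11) went the other way. Car4 had 1400 CPM after LGG, 1564 after E. coli, 1535 after PBS and 787 untreated. Ang4 had 61.6 CPM after LGG, 46.8 after E. coli, 72.7 after PBS and 38.0 untreated. For both genes the untreated library was the lowest. Summed over the proximal list, CPM came to 2270 after LGG and 2255 after PBS. Among the members of these lists are also Apoa4, Apoa1, Cyp2c55, Prdx6 and the sodium channel gene Scnn1g. The part of the position of each piece in their ratios was not tested.

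The list of ion and water transport had 5 of 27 above and 12 below and a median of -0.05. Scnn1g, a subunit of the epithelial sodium channel, had 17.8 CPM after LGG, 29.7 after E. coli, 29.9 after PBS and 11.8 untreated (-0.75, -0.93 to -0.57), and Scnn1b was at -0.29 (-0.47 to -0.11). Scnn1g is also the lowest member of the distal list. The bicarbonate cotransporter Slc4a4 had 99.4 CPM after LGG, 109 after E. coli, 136 after PBS and 108 untreated (-0.45, -0.53 to -0.37), and the colonic proton pump Atp12a had 466 CPM after LGG and 573 after PBS (-0.30, -0.34 to -0.26). Absorptive colonocyte genes were mixed, with 17 of 29 above and 9 below and a median of 0.05: Emp1 had 1367 CPM after LGG and 1047 after PBS (0.38, 0.36 to 0.41), while the carbonic anhydrase Car4 had 1400 CPM after LGG and 1535 after PBS (-0.13, -0.16 to -0.11).

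Several goblet cell and barrier genes were higher after LGG. Retnlb, an antibacterial resistin-like protein of goblet cells, had 69.6 CPM after LGG, 40.8 after E. coli, 44.2 after PBS and 55.9 untreated (0.65, 0.53 to 0.78), with LGG the highest. Muc2, the gel-forming mucin, had 9720 CPM after LGG, 8174 after E. coli, 8281 after PBS and 10513 untreated (0.23, 0.22 to 0.24), and the goblet cell factor Spdef had 110 CPM after LGG, 78.0 after E. coli, 86.2 after PBS and 103 untreated (0.35, 0.26 to 0.45). The goblet cell list had 11 of 19 above and 3 below and a median of 0.08, also 0.08 after centring. Of these 19 genes, 13 had a positive ratio before and 10 after centring, and the lowest member was at -0.58. The C-type lectin Reg3b had 17.5 CPM after LGG, 11.9 after E. coli, 10.6 after PBS and 17.8 untreated (0.72, 0.47 to 0.98). Ang4, a microbicidal ribonuclease, went the other way with 61.6 CPM after LGG and 72.7 after PBS (-0.24, -0.35 to -0.13), and the antimicrobial list had 6 of 22 above and 5 below. Its median of 0.03 was -0.08 after centring. Among junction genes, the claudins Cldn23 (42.1 CPM after LGG and 30.04 after PBS; 0.49, 0.33 to 0.64), Cldn3 (0.36, 0.32 to 0.40), Cldn4 (0.35, 0.23 to 0.46) and Cldn15 (0.29, 0.21 to 0.37) were higher, within a list of 22 with 7 above, 4 below and a median of 0.03. Ratios in that junction list were positive in 12 and negative in 10 genes and ran from -0.61 to 0.49, the value of Cldn23. Of the enteroendocrine list, 4 of 19 were above and 1 below, with secretin (Sct) at 18.2 CPM after LGG and 12.1 after PBS (0.59, 0.35 to 0.84).

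Lists of bacterial sensing and cytokine signalling held few genes outside counting error, and their shares below 0 were near the 13.1% of all genes. Toll-like receptor signalling, which senses bacteria, had 1 of 25 above and 3 below and a median of 0.02. Tlr6, which with Tlr2 recognises lipoproteins, had 1.71 CPM after LGG and 0.872 after PBS, or 50 and 14 counts (0.95, 0.09 to 1.94). Tlr9, the receptor for bacterial DNA, had 1.30 CPM after LGG and 2.37 after PBS, or 38 counts in each library (-0.86, -1.55 to -0.18). NF-kB and feedback genes had 3 of 21 above and 3 below, and Tnfaip3, the feedback deubiquitinase A20, had 72.6 CPM after LGG and 81.8 after PBS (-0.17, -0.27 to -0.07). Interferon-stimulated genes had 0 of 37 above and 5 below with a median of -0.05, and cytokines and chemokines 1 of 20 above and 2 below, with the eosinophil attractant Ccl11 at -0.38 (-0.67 to -0.09).

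B and plasma cell genes had 2 of 18 above and 4 below, 3 of them past 1.5-fold, and a median of -0.14. Over all genes, 14.3% were above and 13.1% below 0. Igj, the joining chain of secreted immunoglobulin, had 32.7 CPM after LGG, 45.2 after E. coli, 50.3 after PBS and 26.9 untreated (-0.62, -0.76 to -0.48), and Fcer2a, a receptor of follicular B cells, had 3.76 CPM after LGG, 5.78 after E. coli, 6.11 after PBS and 2.35 untreated (-0.70, -1.11 to -0.29). Both genes stood lower after LGG and in the untreated library than after E. coli and PBS. MHC class II genes had 0 of 12 above and 3 below, with the chaperone Cd74 at 225 CPM after LGG and 245 after PBS (-0.13, -0.18 to -0.07) and the B cell gene H2-Ob at -0.49 (-0.81 to -0.17). Cx3cr1, the fractalkine receptor of gut macrophages, had 5.71 CPM after LGG and 8.72 after PBS (-0.61, -0.94 to -0.28), in a macrophage list with 1 of 18 above, 3 below and a median of -0.12.

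Clock genes had intervals below 0 in 11 of 22 cases and above 0 in 1, with a median of -0.09 (-0.05 centred). Ratios were negative in 16 and positive in 6 of these genes and ran from -0.56 to 0.41. Nr1d1, the clock repressor REV-ERB alpha on chromosome 11 (98629246 to 98636691, mm9), had 89.0 CPM after LGG, 148 after E. coli, 132 after PBS and 174 in the untreated library (-0.56, -0.65 to -0.48). LGG was the lowest of the 4. Per2 had 118 CPM after LGG, 128 after E. coli, 139 after PBS and 38.9 untreated (-0.24, -0.31 to -0.16), where the untreated library was the one apart. Ciart, another clock repressor, was at -0.39 (-0.59 to -0.18). The clock time at which each animal was sampled is not in the labels used here.

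Among immediate early genes, which cells switch on within minutes of a stimulus, 12 of 30 were above and 6 below, and the median was 0.02. The AP-1 members Jund, Junb and Jun were on the higher side: Jund had 403 CPM after LGG, 326 after E. coli, 298 after PBS and 318 untreated (0.44, 0.39 to 0.49), Junb had 108 CPM after LGG, 95.2 after E. coli, 83.3 after PBS and 99.4 untreated (0.38, 0.28 to 0.47), and Jun had 132 CPM after LGG, 108 after E. coli, 104 after PBS and 130 untreated (0.34, 0.26 to 0.42). All 3 were highest after LGG. The members furthest from 0, both lower past 1.5-fold, were Arc, a neuronal activity gene, with 1.09 CPM after LGG and 1.99 after PBS, or 32 counts in each library (-0.85, -1.62 to -0.11), and the orphan nuclear receptor Nr4a2, with 3.35 CPM after LGG and 5.23 after PBS (-0.64, -1.08 to -0.21). Myc was also on the lower side with 26.9 CPM after LGG and 31.2 after PBS (-0.21, -0.38 to -0.05). Of cytoprotective genes, Ptgs2, the inducible cyclooxygenase, had 17.4 CPM after LGG and 13.4 after PBS (0.38, 0.15 to 0.62), the growth factor Hbegf had 25.8 CPM after LGG and 20.7 after PBS (0.32, 0.13 to 0.51) and the small heat shock protein Hspb1 had 123 CPM after LGG and 108 after PBS (0.19, 0.11 to 0.27). The cytoprotection and apoptosis list had 10 of 33 above, 3 below and a median of 0.04. Other chaperones pointed down: Hspa8 had 1481 CPM after LGG and 1676 after PBS (-0.18, -0.20 to -0.16), heat shock genes had 2 of 22 above and 7 below, and the unfolded protein response had 1 of 27 above and 10 below, with Hspa5 at -0.13 (-0.16 to -0.09).

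Genes of mitochondrial and ribosomal proteins have short transcripts, and their list medians came nearer to 0 after centring. Nuclear genes of oxidative phosphorylation had 37 of 42 above and 0 below, with Uqcrq, a subunit of complex III, at 0.29 (0.21 to 0.37), and cytosolic ribosomal proteins had 43 of 52 above and 0 below, with Rpl36 at 0.34 (0.27 to 0.40). Their median lengths were 844 and 730 bases, their medians 0.12 and 0.11, and after centring 0.04 and 0.02. Ratios were positive in 42 of 42 and 50 of 52 genes before centring, and in 32 of 42 and 32 of 52 after it. These genes are among the short ones on which they were centred, and the part of length was not tested. The small intestinal, fatty acid oxidation, conjugation, adipocyte, distal and mesothelium lists moved by at most 0.03 in the same step.

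**Figure D5:**
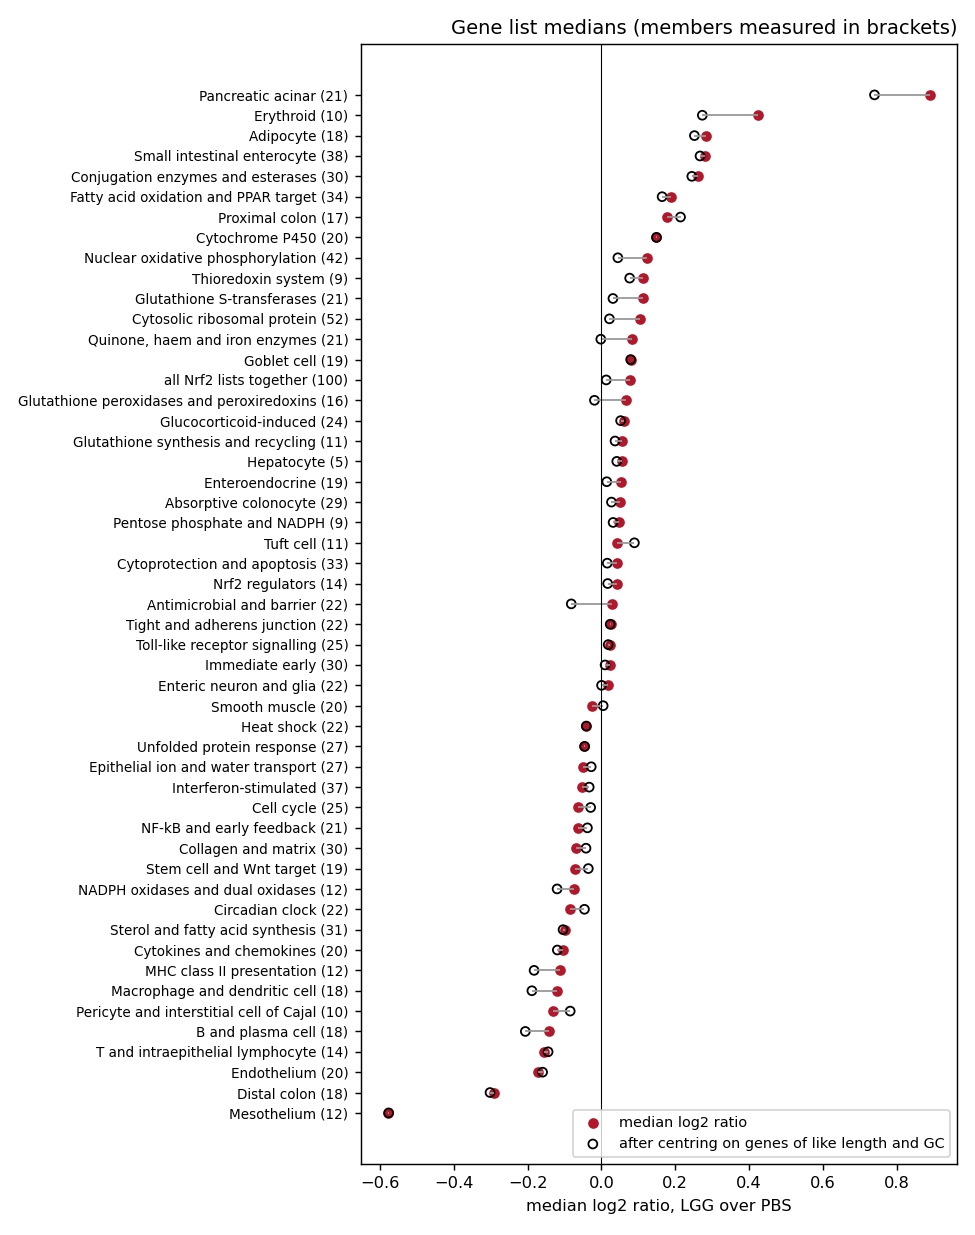
Median log2 ratio of LGG over PBS (horizontal axis) of 50 gene lists with at least 5 measured members and of all Nrf2 lists together, as measured (filled red) and after centring on genes of like length and GC (open black). Pancreatic acinar, erythroid, adipocyte and small intestinal lists lie highest and mesothelium, distal colon and endothelium lowest; the ribosomal, oxidative phosphorylation and Nrf2 medians move towards 0 after centring.

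Genes at which the LGG library stood apart from all 3 others were counted among the 11837 genes with a mean of at least 5 CPM. LGG was above each other library, with all 3 intervals above 0, in 826 genes (6.98%) and below each in 480 (4.06%). By the same count E. coli stood above each other library in 514 genes and below in 329, PBS above in 221 and below in 217, and the untreated library above in 1433 and below in 1837, so that LGG stood apart less often than the untreated library. Such numbers depend on depth too, and the PBS library held the fewest counts, 16289580. The part of depth was not tested. The median transcript length was 1517 bases in those above and 5535 bases in those below, against 2938 bases for all 11837. Those furthest above were Fabp2 and Rnaset2b, a lysosomal ribonuclease with a near-identical copy, which had 18.8 CPM after LGG, 12.6 after E. coli, 10.9 after PBS and 10.7 untreated (0.78 over PBS, 0.54 to 1.04). Next came guanylin (Guca2a), a peptide of fluid secretion, with 1564 CPM after LGG, 1112 after E. coli, 1233 after PBS and 1226 untreated (0.34, 0.32 to 0.37). The 10 also held the stress gene Gadd45g (0.53, 0.32 to 0.74), endothelin 3 (Edn3; 0.48, 0.28 to 0.69), Jund, the dipeptidase Dpep1 (0.32, 0.27 to 0.37), the sulfide oxidation enzyme Ethe1 (0.31, 0.27 to 0.35), Chchd2 (0.35, 0.28 to 0.41) and Edf1 (0.40, 0.34 to 0.47). The last of these has a transcript of 662 bases and was at 0.23 after centring.

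Furthest below each other library were Nr1d1, Arid5b, a factor of fat metabolism (11.96 CPM after LGG, 16.8 after E. coli, 17.1 after PBS and 17.7 untreated; -0.52 over PBS, -0.75 to -0.29) and Hoxd13. They were followed by the basement membrane proteoglycan Hspg2 (179 CPM after LGG, 222 after E. coli, 224 after PBS and 255 untreated; -0.32, -0.38 to -0.26), the growth factor carrier Igfbp3 (26.1 CPM after LGG, 36.4 after E. coli, 34.6 after PBS and 64.5 untreated; -0.41, -0.57 to -0.25) and the small RNA effector Ago2 (31.5 CPM after LGG, 41.1 after E. coli, 44.1 after PBS and 40.8 untreated; -0.48, -0.63 to -0.34). In Arid5b, Hspg2 and Ago2 the other 3 libraries lay close together. The list closed with the peptide transporter Slc15a2 (-0.62, -1.002 to -0.24), Rgl1 (-0.48, -0.73 to -0.23), Kmt2e (-0.28, -0.36 to -0.19) and Apbb1ip (-0.53, -0.88 to -0.19). Hspg2 has a transcript of 14078 bases and was at -0.22 after centring.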

How the data were processed

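RNA of germ-free mouse colon was sequenced in 4 libraries, 1 each for LGG, E. coli, PBS and untreated mice. Per the labels' protocols, RNA was extracted in TRIzol, cleaned on columns with DNase, and made into Illumina TruSeq v2 libraries. TopHat2, HOMER and mouse build mm9 are named in the submitters' processing notes; what each did, and whether strand was used, the sources used here do not give. In a single table, the authors deposited expected counts for 24016 rows in steps of 0.5, which were rounded to whole numbers; 22 measured rows carry more than 1 genomic copy, where reads of near-identical genes cannot be assigned with certainty.

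Counts were scaled with TMM factors (edgeR 4.0.16 in R 4.3.3; 0.979 for LGG, 0.989 for E. coli, 0.985 for PBS and 1.05 for untreated) into CPM. Log2 ratios had 0.5 counts, adjusted for library size, added to each side, and 95% intervals came from the exact conditional binomial (Clopper-Pearson), computed with scipy 1.17.1, numpy 2.4.6 and pandas 2.3.3 under Python 3.11.15; matplotlib 3.10.9 drew the figures. Since reads were amplified by PCR and carry no molecular identifiers, the intervals and the floors (3 counts) cover counting error only. A gene was past a rule when its ratio was at least 2-fold (or 1.5-fold) and its interval excluded 0. The edges of the filter at a mean of 1 CPM were Tbc1d22bos and Rfx6 just inside (1.00 each) and Ovol3 and Fibcd1 just outside (0.999 each). Lengths are those of the deposited table. GC content came from GENCODE M21 transcripts matched by RefSeq accession, for 98.7% of genes, and centring used 10 length classes by 5 GC classes. Sequences are from RefSeq; gene coordinates are mm9 as deposited.

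The members, the 52 gene lists, their rules and the alternatives were chosen with earlier results of these data known. Named genes are the 8 core Nrf2 genes, those past 2-fold and the leading members of each list. Among genes of at least 50 CPM, the 12 higher and 12 lower by the interval bound nearest 0 are named. So are the 10 on each side at which LGG stood apart from the other libraries. In the Nrf2, colon position and other-tissue lists, and in lists of at most 12 genes, any member could be named. The choice within these lists was free. Mrap, Xirp1, Arc and Nr4a2 were added after their values were seen. Lists share members, such as Retnlb (goblet, antimicrobial and distal). The pipeline was tested on simulated counts. A few genes that these rules name are not reported here.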

Additional observations from a re-analysis of the deposited data

How the results depend on the processing

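Each group has 1 library, so which differences would recur in further mice is unknown, and depth (16289580 counts after PBS) limits genes of a few CPM. With DESeq2 1.42.0 size factors, library totals or upper-quartile factors, the counts past 2-fold were 25 to 27 higher and 14 to 15 lower, and all of the 14 lower genes stayed past it. The split of intervals above and below 0 was 2224 and 1752 with DESeq2 factors but 1892 and 2082 with library totals. Without a filter, 48 genes were higher and 58 lower past 2-fold. With a mean of at least 5 CPM, 6 were higher and 0 lower past 2-fold, and 41 higher and 32 lower past 1.5-fold; fewer genes are tested there. A prior of 5 counts left 19 and 10 past 2-fold.

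Centring on genes of like length and GC, added after seeing the data, gave 21 higher and 12 lower past 2-fold, which include 21 of the 26 and 11 of the 14 genes, and turned the sign of 4 named genes: Ftl1 (-0.041), Gpx1 (-0.064), Prdx5 (-0.031) and Zg16 (-0.023). Of 378 named genes, 66 moved outside their interval in that step; 3 of 53 list medians moved by over 0.1, those of the acinar list (0.74), the erythroid list (0.27) and the antimicrobial list (-0.08). A mean of at least 5 CPM brought the acinar median to 0.14 and the mesothelium median to -0.05.

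No paired analysis was possible because each group holds 1 library.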

Other observations

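Genes of the colon wall and of epithelial renewal showed small differences between LGG and PBS. Collagen and matrix genes had 3 of 30 intervals above and 15 below 0 and a median log2 ratio of LGG over PBS of -0.07 (-0.04 after centring). Fibrillin 1 (Fbn1) had 37.4 CPM after LGG, 45.3 after E. coli, 45.9 after PBS and 75.0 in the untreated library (-0.30, -0.43 to -0.16), and Timp3, which inhibits matrix proteases, had 153 CPM after LGG, 176 after E. coli, 191 after PBS and 173 untreated (-0.31, -0.38 to -0.25). LGG was the lowest library for both. Smooth muscle genes were split, with 6 of 20 above and 7 below: calponin (Cnn1) had 1306 CPM after LGG and 1179 after PBS (0.15, 0.12 to 0.17), while filamin A (Flna) had 1646 CPM after LGG and 1918 after PBS (-0.22, -0.24 to -0.20). Flna was at -0.10 after centring.

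Enteric neuron and glia genes had 2 of 22 above and 3 below, against 14.3% and 13.1% of all genes. Neuronal nitric oxide synthase (Nos1), the relaxing transmitter enzyme of gut neurons, had 7.04 CPM after LGG, 7.95 after E. coli, 9.53 after PBS and 13.9 untreated (-0.44, -0.75 to -0.13). Among cell cycle genes, 2 of 25 were above and 6 below. The proliferation marker Mki67 had 98.9 CPM after LGG, 118 after E. coli, 111 after PBS and 148 untreated (-0.17, -0.25 to -0.08), and the replication helicase subunit Mcm3 had 34.7 CPM after LGG, 35.6 after E. coli, 43.1 after PBS and 32.4 untreated (-0.31, -0.45 to -0.17). Prom1, a membrane protein of crypt cells, had 309 CPM after LGG, 235 after E. coli, 247 after PBS and 283 untreated (0.32, 0.27 to 0.38), with LGG the highest. Erythroid genes had 4 of 10 above and 0 below and a median of 0.42, or 0.27 after centring. These 4 are globin rows that overlap in pairs at 2 loci with near-equal counts, so that they are not 4 separate measurements.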
